A study of Mus musculus with 6 samples.

Results

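Imprinted genes were examined in the RNA-seq of mouse embryonic stem cells (mESCs) held for 10 passages with leukaemia inhibitory factor (LIF), with oncostatin M (OSM) or with neither cytokine. The genes were taken by symbol from a list of 47 known imprinted genes that includes H19. The rule uses no measured value, but the list was drawn up with earlier results of these data known. A row was found for 45 of the 47 among the 28584 gene symbols with values. Kcnq1ot1 and Rasgrf1 were not analysed here. The 47 genes lie in 20 imprinted domains, and 13 of these domains had several genes in the table.

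Genomic imprinting marks the maternal and the paternal copy of a gene differently in the germ line, by DNA methylation of a control region, so that afterwards mainly 1 parental copy is transcribed. Imprinted genes lie in clusters that share a control region, and neighbours in a cluster are often expressed from opposite parental copies. Many of them act in fetal and placental growth, and mESCs in culture are known to lose or shift imprints over passages. Deposited values do not separate the parental copies, so maternal and paternal below are the classes known for each gene and not a measurement. Of the 45 genes, 13 are known as maternally expressed, 23 as paternally expressed, and 9 depend on the isoform or the tissue.

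The mESC line came from a C57BL/6 × 129S6 blastocyst and was kept on mitomycin C-inactivated mouse embryonic fibroblasts for 5 passages in serum and LIF before the media were split. All 3 media shared the same basal medium with 20% fetal bovine serum. LIF-ESCs then received 1000 U/mL LIF, OSM-ESCs were given 10 ng/mL OSM instead and -LIF-ESCs neither cytokine, and mRNA of passage 10 was sequenced from 2 replicates in each group. All libraries come from this 1 line, so the spread between replicates is a spread between its cultures, and labels do not state whether feeder cells were present or removed at harvest. Both comparisons against -LIF-ESCs use the same 2 control libraries.

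Values are TPM, in which reads are divided by gene length and scaled to a common total per library. Recovered reads per library ran from 20712941 to 28994417. Fold changes are on the log2(TPM + 1) scale, which understates changes of genes with low TPM, and were tested with limma over 18556 genes that reached 1 TPM in 2 or more libraries. A gene was called when its Benjamini-Hochberg adjusted p was under 0.05 and its log2 fold change reached 1 or -1, the fold limit below. With 2 libraries a group, the smallest two-sided p of an exact permutation test is 0.33, and the p-values therefore lean on the limma model. Over all genes tested, the median of the log2 fold changes against -LIF-ESCs was 0.17 with LIF and 0.18 with OSM, and 0.00 and 0.01 once each library had been rescaled by the median ratio. Changes that lost or gained an adjusted p under 0.05 after rescaling are given with that value.

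The label of embryonic stem cells was checked against 10 markers. Pou5f1 was at 540 and 551 TPM in -LIF-ESCs and Nanog at 436 and 431 TPM, and 6 of the 10 were called higher in LIF-ESCs and in OSM-ESCs, or 5 and 4 after rescaling. Nanog went the other way, to a mean of 289.9 TPM with LIF and 261 TPM with OSM, at -0.58 and -0.73 (limma adjusted p = 0.000144 and 6.37e-05). The extraction label of the samples speaks of rOvaries where every other label names embryonic stem cells, a conflict that was not resolved here. Of 9 trophoblast markers tested, 7 were called lower in both, and the summed TPM of the list was 1879 and 1876 in -LIF-ESCs against 75.7 to 89.6 in the other 4 libraries. Krt8 and Krt18, which many simple epithelia also express, made up most of that sum. Of 7 mesoderm markers tested, 5 were called lower in both media and 1 higher, with a summed TPM of 82.5 and 80.2 in -LIF-ESCs against 4.07 to 5.07 elsewhere. Fibroblast markers went the other way, with 18 of 23 called higher in LIF-ESCs and in OSM-ESCs and 1 called lower in LIF-ESCs (Tagln). Fap was listed at 0 in both -LIF-ESC libraries. Some fibroblast markers, such as Col3a1, Postn and Prrx1, reached 1 TPM only in the groups with a cytokine. They entered the test through the groups in which they were high, so these counts are no independent support. The same limit applies to markers of the other lists that reached 1 TPM in only some groups. Primitive endoderm markers were called higher for 5 of 7 in LIF-ESCs and 3 of 7 in OSM-ESCs, and neural markers for 2 of 5 in each, with 1 neural marker (Nes) called lower in LIF-ESCs. The shares called over all genes tested were 13.3% higher and 8.09% lower with LIF, and 14.2% and 7.86% with OSM. After rescaling, the shares called higher were 10.4% with LIF and 11.0% with OSM. In bulk RNA, fewer cells of a type and less RNA per cell cannot be told apart, and the part of these other cell markers in the changes of imprinted genes was not tested.

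Several maternally expressed noncoding RNAs are hosts of microRNAs, and their mature sequences are shown because they are the known products of H19, Meg3 and Mirg, 3 of the noncoding RNAs called in both media. Sequences are from RefSeq on GRCm38.p6, 5′ to 3′, with the seed (bases 2 to 8) in capitals. The hairpins lie within H19 on the minus strand of chromosome 7 and within Meg3 and Mirg on the plus strand of chromosome 12.
mmu-miR-675-5p (H19): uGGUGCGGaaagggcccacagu
mmu-miR-675-3p (H19): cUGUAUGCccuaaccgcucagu
mmu-miR-1906 (Meg3): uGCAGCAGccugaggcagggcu
mmu-miR-770-5p (Meg3): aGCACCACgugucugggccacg
mmu-miR-770-3p (Meg3): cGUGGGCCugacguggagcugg
mmu-miR-410-5p (Mirg): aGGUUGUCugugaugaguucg
mmu-miR-410-3p (Mirg): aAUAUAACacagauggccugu
The 7 mature sequences of these 4 hairpins hold 7 distinct seeds, so no 2 of them share one. The libraries were made from polyadenylated mRNA, and a read in a hairpin's row is a fragment of the host transcript or precursor, not a mature miRNA. Recovered reads of the Mir675 hairpin numbered 2595 and 2092 without cytokine, 170 and 155 with LIF and 211 and 279 with OSM. Those of Mir1906-1 went the other way, from 86 and 63 without cytokine to 231 and 226 with LIF and 306 and 343 with OSM. Mir770 had 3 to 19 reads and Mir410 2 to 49 reads in any library, which counting error alone moves widely. Because hairpin exons lie inside the exons of their hosts, these reads repeat the direction of H19 and Meg3 and are no independent measurement.

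Promoter stretches are shown for the Peg3 and Usp29 pair, which start head to head and moved together, and for Grb10, the gene with the highest fold change. They are the bases before the RefSeq starts on the minus strand of GRCm38.p6, written 5′ to 3′ with CpG dinucleotides, the sites of DNA methylation, in capitals. The first is the whole stretch between the gene models of Peg3 and Usp29, chr7:6730432-6730577, with 5 CpG in 146 bases. The second is the 250 bases before a Grb10 start, chr11:12037421-12037670, with 40 CpG.
Peg3-Usp29: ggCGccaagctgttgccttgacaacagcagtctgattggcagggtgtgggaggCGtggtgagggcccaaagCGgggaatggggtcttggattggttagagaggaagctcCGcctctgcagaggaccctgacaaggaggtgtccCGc
Grb10: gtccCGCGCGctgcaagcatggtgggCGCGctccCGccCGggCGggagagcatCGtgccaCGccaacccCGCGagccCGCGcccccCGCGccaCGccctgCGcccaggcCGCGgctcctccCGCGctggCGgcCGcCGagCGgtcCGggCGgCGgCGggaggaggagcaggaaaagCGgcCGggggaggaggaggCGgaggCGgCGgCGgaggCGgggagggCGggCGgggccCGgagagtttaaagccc
RefSeq windows of 300 bases around gene starts were held for 37 of the 45 genes, in 55 windows. The letters TGCCGC, the core recognised by ZFP57, a zinc finger protein that guards imprints, were searched on both strands. They occurred in 15 of the 55 windows (27.3%) and in 16.4% of the 18782 windows of all genes with a row. Some windows overlap or are the same, as for Snrpn and Snurf, and among windows that do not overlap the shares were 13 of 51 (25.5%) and 15.8%. A ratio of observed to chance CpG of at least 0.6 was found in 54.5% of the imprinted gene windows and 55.5% of all windows. Whether a window lies in an imprinting control region was not examined, and such letters are a description of the window and no site of binding.

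Against -LIF-ESCs, imprinted genes were called in both directions. In LIF-ESCs 8 of the 41 tested were called higher, against 13.3% of all genes tested, and 8 were called lower, against 8.09% of all genes. In OSM-ESCs 9 were called higher, against 14.2%, and 8 lower, against 7.86%. After rescaling by the median ratio the counts were 7 higher and 10 lower in LIF-ESCs, with 10.4% and 10.5% of all genes, and 9 and 10 in OSM-ESCs, with 11.0% and 10.4%. On recovered reads with limma's voom they were 7 and 11 with LIF and 9 and 11 with OSM, and the shares of all genes under that fit were not worked out. With the adjusted p alone, 16 were higher and 18 lower in LIF-ESCs (42.2% and 25.9% of all genes), and 19 and 18 in OSM-ESCs (42.9% and 25.4%). The libraries of the 2 groups compared did not overlap for 18 genes higher and 20 lower in LIF-ESCs, against 50.9% and 33.4% of all genes, and for 20 and 18 in OSM-ESCs, against 51.5% and 32.4%.

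The genes called higher in both media were Igf2r, Meg3, Rian, Mirg, Grb10, Zdbf2, H13 and Peg13, and those called lower in both were H19, Peg3, Usp29, Peg10, Sgce, Mest and Ddc. Igf2 was called higher in OSM-ESCs, Ascl2 lower in LIF-ESCs and Peg12 lower in OSM-ESCs, which makes 18 genes in all, and none was called in opposite directions in the 2 media. Differences between the media for these genes are given further down with their own test. The 4 genes with a row that could not be tested were Airn, Rtl1, Zim1 and Asb4, each below 1 TPM in every library. Usp29 and Peg13 reached 1 TPM only in the groups in which they were high.

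**Figure D1:**
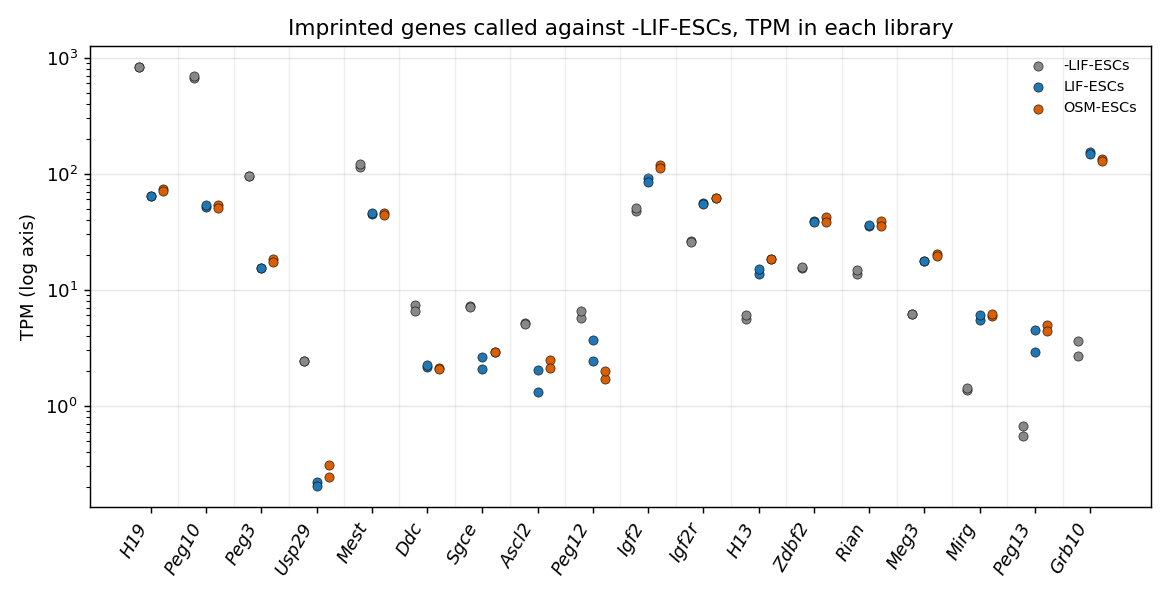
TPM (log axis) of the 18 imprinted genes called against -LIF-ESCs, 1 point per library, 2 libraries each of -LIF-ESCs (grey), LIF-ESCs (blue) and OSM-ESCs (orange). H19 lies at 825 and 834 TPM in -LIF-ESCs and between 64.0 and 74.5 TPM in the other 4 libraries, and Grb10 lies at 2.68 and 3.64 TPM in -LIF-ESCs and between 128 and 153 TPM elsewhere.

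The Igf2-H19 domain is the textbook case of imprinted neighbours, with a maternal noncoding RNA, H19, and a paternal growth factor, Igf2, that share enhancers. H19 (chr7:142575529-142578143, minus strand) was at 825 and 834 TPM in -LIF-ESCs, 64.5 and 64.0 TPM in LIF-ESCs and 74.5 and 71.1 TPM in OSM-ESCs. Its mean TPM was 12.9-fold lower in LIF-ESCs, a log2 fold change of -3.67 ± 0.04 (SE, limma adjusted p = 9.81e-07), and 11.4-fold lower in OSM-ESCs, -3.49 ± 0.04 (adjusted p = 9.81e-07). Both -LIF libraries stood far above the other 4.

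Igf2 (chr7:142650766-142666816, minus strand) was at 48.2 and 50.8 TPM in -LIF-ESCs, 91.8 and 85.3 TPM in LIF-ESCs and 120 and 113 TPM in OSM-ESCs. The 3 groups did not overlap and stood in the order -LIF, LIF, OSM. Its log2 fold change was 0.83 ± 0.06 with LIF (limma adjusted p = 0.000122), under the fold limit, and 1.22 ± 0.06 with OSM (adjusted p = 3.42e-05), where it was called higher. The gene model Gm49394 covers 62.8% of the exon bases of Igf2 on the same strand. It had 2992 and 2568 recovered reads in -LIF-ESCs against 3122 and 2705 for Igf2, and the 2 are no separate measurements. The log2 ratio of H19 to Igf2 within a library was 4.07 and 4.01 without cytokine, -0.50 and -0.41 with LIF and -0.68 and -0.66 with OSM. The 2 neighbours thus changed places, with H19 above Igf2 per length in -LIF-ESCs and below it in the other 4 libraries.

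Igf2r encodes the receptor that binds IGF2 and delivers it to lysosomes, and is classed as maternally expressed, opposite the paternal noncoding RNA Airn. Igf2r (chr17:12682406-12769664) was at 26.4 and 25.9 TPM in -LIF-ESCs, 56.0 and 54.5 TPM in LIF-ESCs and 62.3 and 61.6 TPM in OSM-ESCs. The change on the log2 scale was 1.05 ± 0.04 with LIF (limma adjusted p = 1.79e-05) and 1.22 ± 0.04 with OSM (adjusted p = 1.11e-05). The call in LIF-ESCs sat just past the fold limit and was lost after rescaling by the median ratio, at 0.87, and on recovered reads. Airn was at 0.184 to 0.359 TPM in the 6 libraries, with overlapping groups, and was not tested. Poly-A selection is known to capture such long unspliced RNAs poorly, so its low TPM says little of its transcription.

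The Dlk1-Meg3 domain on chromosome 12 has 3 maternal noncoding RNAs, Meg3, Rian and Mirg, which carry snoRNAs and miRNAs, and the paternal protein genes Dlk1, a membrane ligand related to Notch ligands, and Rtl1, derived from a retrotransposon. Meg3 (chr12:109541001-109571726) was at 6.13 and 6.16 TPM in -LIF-ESCs, 17.8 and 17.7 TPM in LIF-ESCs and 20.3 and 19.5 TPM in OSM-ESCs. The change on the log2 scale was 1.39 ± 0.05 with LIF (limma adjusted p = 2.01e-05) and 1.55 ± 0.05 with OSM (adjusted p = 1.44e-05). Rian was at 13.7 and 14.9 TPM in -LIF-ESCs, 35.4 and 36.4 TPM in LIF-ESCs and 39.5 and 35.6 TPM in OSM-ESCs, with log2 fold changes of 1.27 ± 0.07 and 1.34 ± 0.07. Mirg was at 1.38 and 1.41 TPM in -LIF-ESCs, 5.45 and 6.04 TPM in LIF-ESCs and 5.99 and 6.23 TPM in OSM-ESCs, with log2 fold changes of 1.49 ± 0.09 and 1.57 ± 0.09. All 3 maternal RNAs of the domain were thus called higher in both media, and for each the -LIF libraries lay below the other 4.

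Dlk1 did not follow them. It was at 6.12 and 5.72 TPM in -LIF-ESCs, 6.07 and 5.70 TPM in LIF-ESCs and 7.77 and 7.56 TPM in OSM-ESCs, with a log2 fold change of -0.01 ± 0.08 with LIF (limma adjusted p = 0.94) and 0.33 ± 0.08 with OSM (adjusted p = 0.0118), the latter at 0.15 (adjusted p = 0.116) after rescaling. Rtl1 was at 0.236 and 0.270 TPM in -LIF-ESCs, 0.788 and 0.715 TPM in LIF-ESCs and 0.965 and 0.973 TPM in OSM-ESCs. It was too low to be tested, its groups did not overlap, and 7 miRNA genes share bases with its exons, most of them on the opposite strand. The log2 ratio of Meg3 to Dlk1 went from 0.00 and 0.09 without cytokine to 1.41 and 1.48 with LIF and 1.28 and 1.26 with OSM, while that of Meg3 to Rian changed by 0.12 in LIF-ESCs and 0.21 in OSM-ESCs.

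In the Kcnq1 domain, whose paternal noncoding RNA Kcnq1ot1 was not analysed, 4 maternal genes were measured. Ascl2, a transcription factor of the placenta and of stem cells, was at 5.17 and 5.10 TPM in -LIF-ESCs, 1.31 and 2.05 TPM in LIF-ESCs and 2.50 and 2.13 TPM in OSM-ESCs. The change on the log2 scale was -1.21 ± 0.16 with LIF (limma adjusted p = 0.0014), where it was called lower, and -0.89 ± 0.16 with OSM (adjusted p = 0.00455), just short of the fold limit. Phlda2, which restrains placental growth, was at 59.6 and 67.3 TPM in -LIF-ESCs and between 50.9 and 55.4 TPM in the other 4 libraries, with log2 fold changes of -0.24 ± 0.07 and -0.27 ± 0.07.

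Cdkn1c, the cell cycle inhibitor p57, was at 34.0 and 32.0 TPM in -LIF-ESCs, 31.6 and 34.9 TPM in LIF-ESCs and 41.6 and 37.1 TPM in OSM-ESCs, with a log2 fold change of 0.01 ± 0.08 with LIF (limma adjusted p = 0.935) and 0.24 ± 0.08 with OSM (adjusted p = 0.0384), which fell to 0.05 (adjusted p = 0.548) after rescaling. On the opposite strand, the model Gm44732 shares 30.7% of the exon bases of Cdkn1c, and without strand their reads cannot be told apart. Slc22a18, a membrane transporter, was at 3.17 and 2.28 TPM in -LIF-ESCs, 4.33 and 3.26 TPM in LIF-ESCs and 4.49 and 4.37 TPM in OSM-ESCs, with a log2 fold change of 0.37 ± 0.17 with LIF (limma adjusted p = 0.104) and 0.55 ± 0.17 with OSM (adjusted p = 0.0304), or 0.40 (adjusted p = 0.0849) after rescaling. The maternal genes of this domain therefore showed no common direction, and the log2 ratio of Slc22a18 to Ascl2 changed by 1.57 in LIF-ESCs and 1.44 in OSM-ESCs.

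In the Peg3 domain the paternal genes Peg3, a zinc finger protein, and Usp29, of the ubiquitin-specific proteases, share the promoter stretch printed above. Peg3 (chr7:6703892-6730431, minus strand) was at 95.1 and 96.1 TPM in -LIF-ESCs, 15.3 and 15.5 TPM in LIF-ESCs and 18.6 and 17.2 TPM in OSM-ESCs. Its mean TPM was 6.19-fold lower in LIF-ESCs, a log2 fold change of -2.56 ± 0.05 (limma adjusted p = 3.88e-06), and 5.35-fold lower in OSM-ESCs, -2.36 ± 0.05 (adjusted p = 4.5e-06). Usp29 (chr7:6730578-6967219, plus strand) was at 2.45 and 2.43 TPM in -LIF-ESCs, 0.218 and 0.202 TPM in LIF-ESCs and 0.241 and 0.310 TPM in OSM-ESCs. Both genes were thus highest in -LIF-ESCs with no overlap of the groups.

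The fitted log2 fold changes of Usp29 were -1.51 ± 0.14 with LIF (limma adjusted p = 0.000358) and -1.43 ± 0.14 with OSM (adjusted p = 0.000429). Usp29 entered the test only through -LIF-ESCs, in which it was high, so these p-values are no independent support. Its mean TPM ratios were larger, 11.6-fold and 8.85-fold lower, because the added 1 TPM shrinks changes of low genes. Zim1, a maternal zinc finger gene of the domain, was at 0.211 to 0.452 TPM in the 6 libraries with overlapping groups and was not tested. The antisense model Zim3 was chosen after its values were seen because it shares 14.3% of the exon bases of Usp29. Its log2 fold changes were -2.06 with LIF and -2.09 with OSM. The shared bases are 2582 of the 3755 exon bases of Zim3, so many of its reads may belong to Usp29. Zim3 is therefore no separate measurement. It was at 3.83 and 4.58 TPM in -LIF-ESCs and 0.177 to 0.312 TPM elsewhere, and like Usp29 it entered the test only through -LIF-ESCs.

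Peg10, a paternal gene derived from a retrotransposon that the placenta requires, was in -LIF-ESCs the most abundant called gene after H19. Peg10 (chr6:4747306-4760517) was at 670 and 698 TPM in -LIF-ESCs, 52.2 and 54.0 TPM in LIF-ESCs and 54.3 and 50.9 TPM in OSM-ESCs. Its mean TPM was 12.9-fold lower in LIF-ESCs, a log2 fold change of -3.66 ± 0.05 (limma adjusted p = 1.54e-06), and 13-fold lower in OSM-ESCs, -3.68 ± 0.05 (adjusted p = 1.54e-06). The size of the change was thus close to that of H19, a maternal gene on another chromosome.

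Sgce, which encodes epsilon-sarcoglycan and starts next to Peg10, was at 7.23 and 7.16 TPM in -LIF-ESCs, 2.61 and 2.09 TPM in LIF-ESCs and 2.93 and 2.89 TPM in OSM-ESCs. It was called lower in both media, at -1.29 ± 0.11 (limma adjusted p = 0.000234) and -1.07 ± 0.11 (adjusted p = 0.000477). The maternal neighbour Ppp1r9a, which encodes the actin-binding protein neurabin, went the other way, from 3.08 and 3.10 TPM to 5.57 and 5.49 TPM in LIF-ESCs and 5.10 and 5.07 TPM in OSM-ESCs. Its log2 fold changes were 0.67 ± 0.08 (limma adjusted p = 0.000761) and 0.57 ± 0.08 (adjusted p = 0.00141), short of the fold limit. The maternal gene Asb4 was at 0.404 and 0.683 TPM in -LIF-ESCs and between 0.126 and 0.273 TPM elsewhere and was not tested. The log2 ratio of Peg10 to Ppp1r9a changed by -4.34 in LIF-ESCs and -4.25 in OSM-ESCs.

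Mest (mesoderm specific transcript), a paternal gene that encodes a protein of the hydrolase family, was at 115 and 120 TPM in -LIF-ESCs, 44.6 and 45.6 TPM in LIF-ESCs and 45.7 and 44.0 TPM in OSM-ESCs. It was called lower in both media, with log2 fold changes of -1.36 ± 0.04 (limma adjusted p = 1.14e-05) and -1.37 ± 0.04 (adjusted p = 1.08e-05). Copg2, a coatomer subunit gene expressed from the maternal copy, was at 80.1 and 84.0 TPM in -LIF-ESCs, 50.7 and 52.6 TPM in LIF-ESCs and 49.9 and 46.2 TPM in OSM-ESCs, with log2 fold changes of -0.66 ± 0.05 and -0.76 ± 0.05. The 2 neighbours moved the same way. They lie on opposite strands and share 912 exon bases, 23.1% of those of Mest, so part of the reads of each may belong to the other.

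Grb10 encodes an adaptor that binds the insulin and IGF1 receptors, and is maternally expressed in most tissues and paternally in neurons. Grb10 (chr11:11930508-12038683, minus strand) was at 2.68 and 3.64 TPM in -LIF-ESCs, 153 and 148 TPM in LIF-ESCs and 135 and 128 TPM in OSM-ESCs. Its mean TPM was 47.6-fold higher in LIF-ESCs, a log2 fold change of 5.20 ± 0.11 (limma adjusted p = 4.81e-06), and 41.7-fold higher in OSM-ESCs, 5.00 ± 0.11 (adjusted p = 4.83e-06). These were the highest log2 fold changes among the imprinted genes tested.

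Ddc, the aromatic amino acid decarboxylase gene next to Grb10, was at 7.40 and 6.62 TPM in -LIF-ESCs, 2.15 and 2.24 TPM in LIF-ESCs and 2.11 and 2.07 TPM in OSM-ESCs. It was called lower, at -1.33 ± 0.10 (limma adjusted p = 0.000149) and -1.37 ± 0.10 (adjusted p = 0.00013). The log2 ratio of Grb10 to Ddc went from -1.19 and -0.72 without cytokine to 5.61 and 5.53 with LIF and 5.45 and 5.40 with OSM. No other pair of neighbours changed as much. Among genes of the list, this was the only domain with calls in both directions in LIF-ESCs, joined in OSM-ESCs by Igf2-H19.

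**Figure D2:**
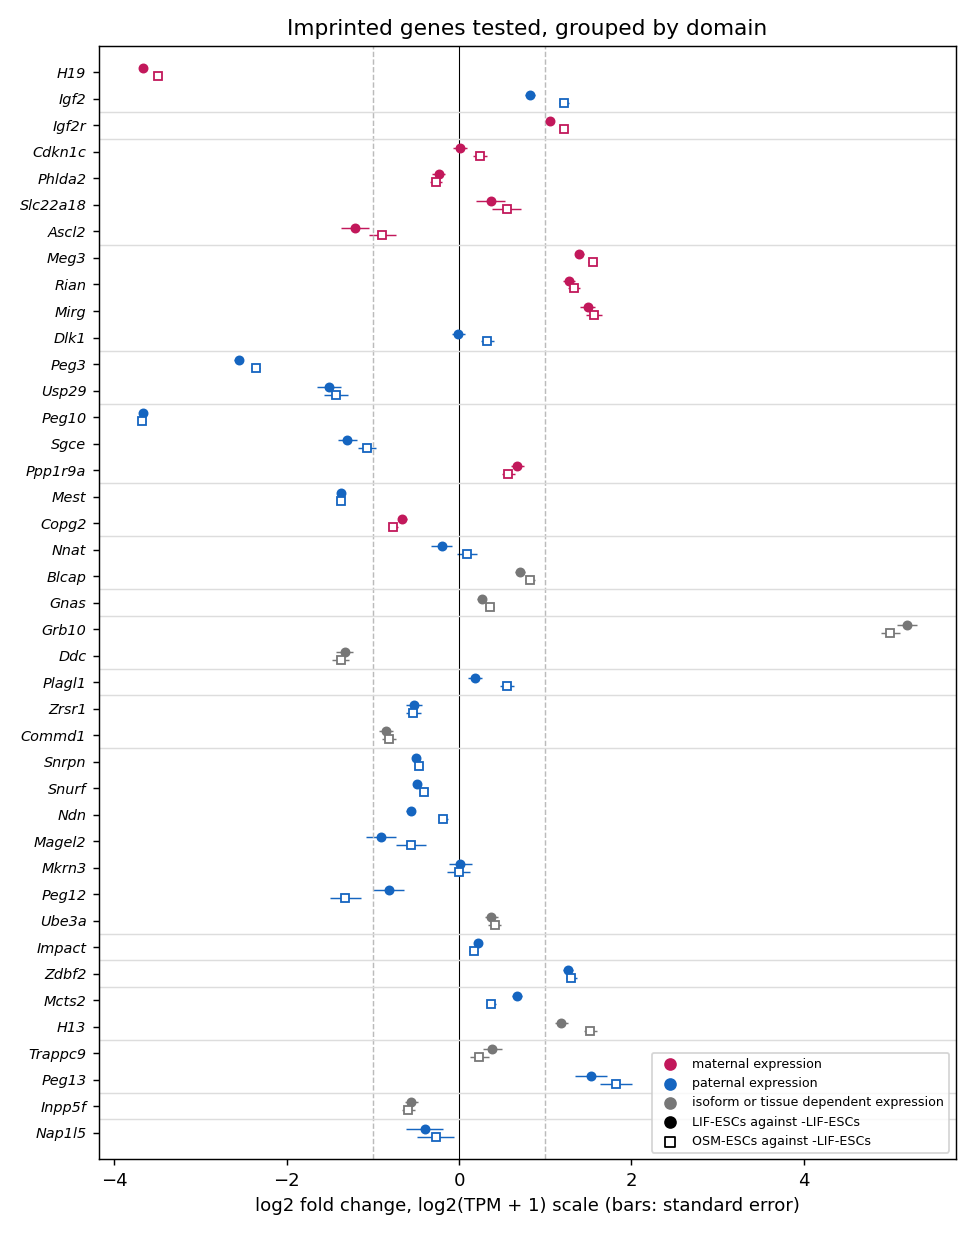
Log2 fold change against -LIF-ESCs on the log2(TPM + 1) scale (x axis) for the 41 imprinted genes tested (y axis), grouped by domain between grey lines, for LIF-ESCs (filled circles) and OSM-ESCs (open squares), with bars for the standard error of the limma fit and dashed lines at the fold limit. Red marks known maternal, blue known paternal and grey isoform or tissue dependent expression. Meg3, Rian and Mirg lie right of 1 while Dlk1 lies near 0, and Grb10 at 5.20 and 5.00 lies opposite its neighbour Ddc.

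The Snrpn domain holds 6 paternal genes of the list and Ube3a, a ubiquitin ligase gene with maternal expression in neurons. Snrpn, a splicing protein gene, was at 245 and 247 TPM in -LIF-ESCs, 171 and 176 TPM in LIF-ESCs and 175 and 181 TPM in OSM-ESCs, with log2 fold changes of -0.50 ± 0.03 (limma adjusted p = 0.000103) and -0.46 ± 0.03 (adjusted p = 0.000134). Snurf was at 748 to 1077 TPM and moved by -0.49 and -0.41, but all of its exon bases lie in Snrpn, so it is no separate measurement. Both were lower in the 4 libraries with a cytokine, by less than the fold limit.

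Peg12, which encodes a GSK3-binding protein, was at 5.65 and 6.55 TPM in -LIF-ESCs, 3.71 and 2.44 TPM in LIF-ESCs and 1.69 and 2.00 TPM in OSM-ESCs. The change on the log2 scale was -0.82 ± 0.18 with LIF (limma adjusted p = 0.00981) and -1.32 ± 0.18 with OSM (adjusted p = 0.00155), where it was called lower. It was the only gene of the list in this domain that was called. It passed the fold limit in LIF-ESCs as well, at -1.05, without the first LIF replicate.

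The MAGE family gene Ndn was at 17.9 and 18.7 TPM in -LIF-ESCs, 12.2 and 11.9 TPM in LIF-ESCs and 15.8 and 16.3 TPM in OSM-ESCs, and its log2 fold changes were -0.56 ± 0.05 (limma adjusted p = 0.000421) and -0.18 ± 0.05 (adjusted p = 0.0284). Magel2, of the same family, was at 2.08 and 1.72 TPM in -LIF-ESCs, 0.644 and 0.455 TPM in LIF-ESCs and 1.18 and 0.766 TPM in OSM-ESCs, and its log2 fold changes were -0.90 ± 0.17 and -0.56 ± 0.17. Mkrn3, a ubiquitin ligase gene, was at 5.86 to 7.47 TPM with overlapping groups and log2 fold changes of 0.01 ± 0.13 and 0.00 ± 0.13. Ube3a was at 12.4 and 12.9 TPM in -LIF-ESCs and 16.1 to 18.3 TPM elsewhere, with log2 fold changes of 0.38 ± 0.07 (limma adjusted p = 0.00669) and 0.42 ± 0.07 (adjusted p = 0.00452). The log2 ratio of Snrpn to Ube3a changed by -0.88 in both media.

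**Figure D3:**
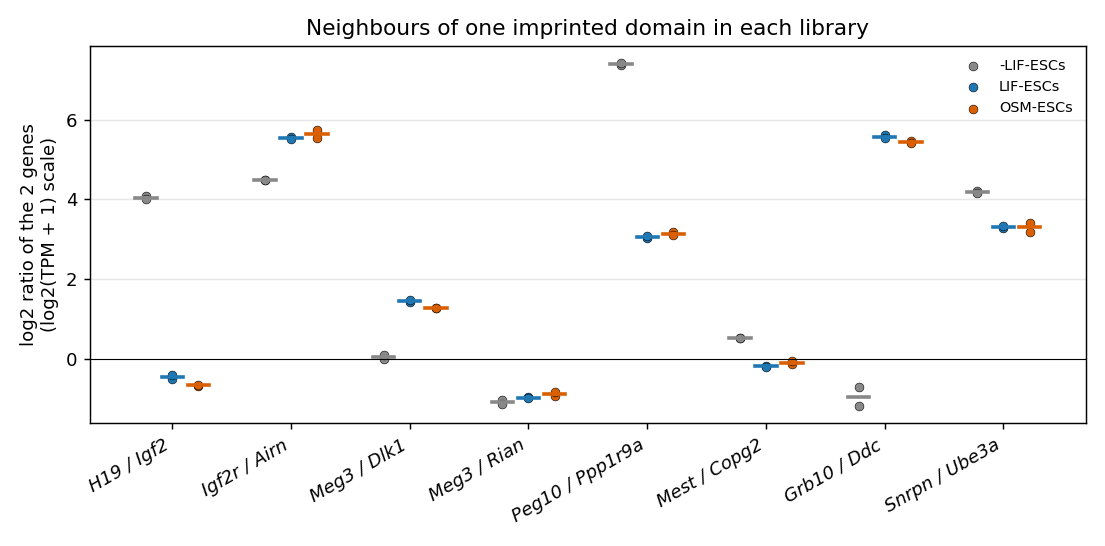
Log2 ratio of 2 neighbours of an imprinted domain within each library, on the log2(TPM + 1) scale, for 8 pairs in -LIF-ESCs (grey), LIF-ESCs (blue) and OSM-ESCs (orange), with 1 point per library and a bar at the group mean. H19 over Igf2 falls from above 4 to below 0, Grb10 over Ddc rises by more than 6, and the group means of Meg3 over Rian lie 0.12 and 0.21 above its -LIF mean.

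Of the remaining domains, 3 held genes called higher in both media. Zdbf2, a paternal zinc finger gene, was at 15.5 and 15.8 TPM in -LIF-ESCs, 39.4 and 38.7 TPM in LIF-ESCs and 42.1 and 38.1 TPM in OSM-ESCs, with log2 fold changes of 1.27 ± 0.06 (limma adjusted p = 3.64e-05) and 1.30 ± 0.06 (adjusted p = 3.2e-05). H13, which encodes the signal peptide peptidase and carries the paternal retrogene Mcts2 in an intron, was at 5.56 and 6.04 TPM in -LIF-ESCs, 13.8 and 15.2 TPM in LIF-ESCs and 18.6 and 18.4 TPM in OSM-ESCs. Its log2 fold changes were 1.19 ± 0.07 (limma adjusted p = 8.46e-05) and 1.52 ± 0.07 (adjusted p = 3.71e-05). H13 stood in the order -LIF, LIF, OSM with no overlap.

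Mcts2 itself was at 23.1 and 22.3 TPM in -LIF-ESCs, 38.6 and 35.2 TPM in LIF-ESCs and 30 and 29.2 TPM in OSM-ESCs, with log2 fold changes of 0.68 ± 0.06 (limma adjusted p = 0.000297) and 0.37 ± 0.06 (adjusted p = 0.00293). Its order of the media, with LIF-ESCs highest, was thus not that of its host. Mcts2 is a near copy of another gene, its reads were not whole under the length used here, and its values are uncertain for both reasons.

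Peg13, a paternal noncoding RNA inside Trappc9, was at 0.673 and 0.546 TPM in -LIF-ESCs, 4.49 and 2.93 TPM in LIF-ESCs and 4.92 and 4.43 TPM in OSM-ESCs. Its log2 fold changes were 1.53 ± 0.18 (limma adjusted p = 0.000936) and 1.82 ± 0.18 (adjusted p = 0.000486). Peg13 entered the test only through the groups with a cytokine, in which it was high, so these p-values are no independent support. Trappc9, a gene of vesicle trafficking, was at 9.84 and 8.11 TPM in -LIF-ESCs, 12.9 and 11.2 TPM in LIF-ESCs and 10.9 and 10.4 TPM in OSM-ESCs, with log2 fold changes of 0.39 ± 0.11 (limma adjusted p = 0.0255) and 0.23 ± 0.11 (adjusted p = 0.115), and the former was 0.22 (adjusted p = 0.136) after rescaling. The noncoding RNA thus gained on its host, and the log2 ratio of Trappc9 to Peg13 changed by -1.14 with LIF and -1.59 with OSM.

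The 9 genes of the list not described so far were not called. Blcap, a neighbour of Nnat, was at 16.1 and 16.7 TPM in -LIF-ESCs and 26.8 to 31.0 TPM elsewhere, with log2 fold changes of 0.70 and 0.82 (limma adjusted p = 0.000257 and 0.000145), while Nnat, a small membrane protein gene, was at 11.5 to 16.8 TPM and moved by -0.20 and 0.09 (adjusted p = 0.184 and 0.529), the former to -0.38 (adjusted p = 0.0321) after rescaling. Commd1, of copper handling and endosomal trafficking, was at 32.7 and 34.3 TPM in -LIF-ESCs and 17.4 to 20.0 TPM elsewhere, at -0.85 and -0.81 (limma adjusted p = 0.000394 and 0.000471), and it passed the fold limit after rescaling, at -1.03 and -1.0. Its intronic paternal retrogene Zrsr1, a splicing factor gene, went the same way at -0.52 and -0.53, and the pair shares 412 exon bases on opposite strands.

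Inpp5f, a phosphatase gene with a paternal isoform, was at 9.46 and 10.1 TPM in -LIF-ESCs and 5.96 to 6.44 TPM elsewhere, at -0.55 and -0.59 (limma adjusted p = 0.00143 and 0.00113). Gnas, the stimulatory G protein subunit gene, was at 62.2 and 65.1 TPM in -LIF-ESCs and 73.8 to 82.6 TPM elsewhere, at 0.26 and 0.35 (limma adjusted p = 0.00573 and 0.00177), and after rescaling at 0.08 and 0.16 (adjusted p = 0.254 and 0.045). Nespas, its antisense neighbour, was chosen after its values were seen. The mean TPM of Nespas went from 0.868 without cytokine to 7.25 with LIF and 8.0 with OSM, log2 fold changes of 2.14 and 2.27. It entered the test only through the groups with a cytokine, in which it was high. Nespas shares 988 of its 3143 exon bases with Gnas, so part of its reads may belong to Gnas. Plagl1, a zinc finger gene of growth control, was at 5.65 and 5.62 TPM in -LIF-ESCs, 6.82 and 6.25 TPM in LIF-ESCs and 9.25 and 8.33 TPM in OSM-ESCs, at 0.18 and 0.56 (limma adjusted p = 0.104 and 0.0022).

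Impact, a regulator of translation, was at 127 TPM in both -LIF-ESC libraries and 137 to 150 TPM elsewhere. Its log2 fold changes of 0.22 and 0.17 were near the shift of all genes, and after rescaling they were 0.03 and -0.029 (limma adjusted p = 0.486 and 0.536). Nap1l5, a paternal retrogene, was at 0.809 to 1.92 TPM and moved by -0.40 and -0.27 (limma adjusted p = 0.155 and 0.31).

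Genes classed as maternally and as paternally expressed were then compared by counts and medians, without a test of the classes. Whether these classes hold in the cells used here was not measured. Of 11 maternal genes tested, LIF-ESCs had 4 called higher and 2 called lower, OSM-ESCs had 4 and 1, and the median log2 fold change was 0.37 and 0.55. After rescaling the maternal counts were 3 and 2 with LIF and 4 and 2 with OSM. Of 21 paternal genes tested, LIF-ESCs had 2 called higher and 5 called lower, OSM-ESCs had 3 and 6, and the median was -0.49 and -0.27. After rescaling, 6 paternal genes were called lower with LIF, and the other 3 paternal counts were as before. The paternal counts include Peg13, called higher, and Usp29, called lower, which entered the test only through the groups in which they were high. Of all genes tested, 13.3% were called higher and 8.09% lower with LIF, and 14.2% and 7.86% with OSM. The same medians over all genes tested were 0.17 and 0.18. After rescaling, the maternal medians were 0.22 and 0.40 and the paternal medians -0.67 and -0.38, so the order of the classes was the same on both scales.

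The classes were mixed within. Among the 4 maternal noncoding RNAs, Meg3, Rian and Mirg were called higher and H19 lower, so the lowest fold change of the maternal class, -3.67, lay beside that of the paternal Peg10, -3.66. Meg3, Rian and Mirg come from 1 domain and are not independent of each other, and neither are Snrpn and Snurf. Of the 9 genes with isoform or tissue dependent expression, 2 were called higher, Grb10 and H13, and 1 lower, Ddc, in both media, joined by Commd1 after rescaling.

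Over the 13 domains with several genes in the table, 54 pairs of neighbours could be formed. The log2 ratio within a library differed by 1 or more from -LIF-ESCs in 19 pairs in LIF-ESCs and in 19 in OSM-ESCs. Of the 15 pairs that join a maternal with a paternal gene, 11 did so in LIF-ESCs and 10 in OSM-ESCs, with a median size of 1.40 and 1.22. These include 8 pairs with Airn, Rtl1, Zim1 or Asb4, which were below 1 TPM in every library, and of the 7 pairs in which both genes were tested 6 did so in each medium. Of the 28 pairs of the same parent, 4 and 5 did so, with a median size of 0.41 and 0.49. Pairs of 1 domain share genes, and 15 of the same-parent pairs come from the Snrpn domain, so these counts are a description. Between OSM-ESCs and LIF-ESCs no pair differed by 1 or more, and the largest difference was 0.88, for Ndn and Peg12.

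The direct comparison of OSM-ESCs with LIF-ESCs asked whether the 2 cytokines leave imprinted genes at the same level. With limma, 0 of the 41 genes were called, against 0.0323% of all genes called higher and 0.0485% called lower, and 0 had an adjusted p under 0.05, where 0.463% of all genes were higher and 0.129% lower by adjusted p. At an unadjusted p under 0.05, 10 were higher in OSM-ESCs, against 9.8% of all genes, and 2 were lower, against 5.5%. Those higher were H19, Igf2, Igf2r, Cdkn1c, Meg3, Dlk1, Peg3, Plagl1, Ndn and H13, and those lower were Peg12 and Mcts2. The libraries of the 2 groups did not overlap for 19 genes higher in OSM-ESCs (46.3%, against 26.3% of all genes) and 7 lower (17.1%, against 20.9%).

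The log2 differences between the media ran from -0.50 to 0.39, and those against -LIF-ESCs from -3.68 to 5.20. For Cdkn1c, Dlk1, Nnat, Plagl1, Ndn and Mkrn3 the difference between the media was larger in size than at least 1 of the changes against -LIF-ESCs. Igf2 had the highest log2 difference between OSM-ESCs and LIF-ESCs, 0.39 ± 0.06 (limma adjusted p = 0.0672), and Ndn followed with 0.38 ± 0.05 (adjusted p = 0.0649). Plagl1 had 0.38 ± 0.08 (adjusted p = 0.145), H13 0.33 ± 0.07 (adjusted p = 0.14) and Dlk1 0.33 ± 0.08 (adjusted p = 0.151). Peg12 had the lowest, -0.50 ± 0.18 (limma adjusted p = 0.29), and Mcts2 had -0.31 ± 0.06 (adjusted p = 0.113).

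The count by adjusted p depended on the fit. With a filter of 5 TPM, Igf2 and Ndn had a limma adjusted p of 0.0481 and 0.0475. On recovered reads, limma's voom gave 10 genes an adjusted p under 0.05, of which 9 were higher in OSM-ESCs (Igf2, H13, Plagl1, Ndn, Igf2r, Peg3, Meg3, Dlk1 and H19) and Grb10 was lower, at -0.20 ± 0.03 (adjusted p = 0.000153). None of them passed the fold limit in either fit. The shares of all genes with an adjusted p under 0.05 in either fit were not worked out, so these counts cannot be read as particular to imprinted genes.

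Fibroblast markers were set beside the imprinted genes in the same comparison. All 23 tested had a log2 difference above 0 between OSM-ESCs and LIF-ESCs, with a median of 0.44, 20 had an unadjusted p and 8 a limma adjusted p under 0.05, and their summed TPM was 966 and 965 with LIF and 1452 and 1445 with OSM. After rescaling this held for all of them but Fbln1. Markers of other lists were lower in OSM-ESCs. Of 10 embryonic stem cell markers, 7 were lower and 0 higher at an unadjusted limma p under 0.05, with a median of -0.16. Of 7 primitive endoderm markers, 5 were lower and 0 higher, with a median of -0.57, and 1 was called lower. The medians of the trophoblast, mesoderm and neural markers were 0.05, 0.13 and 0.07. Against -LIF-ESCs, 19 of the 23 fibroblast markers were higher and 4 lower by limma adjusted p in each medium. Those higher include markers that reached 1 TPM only with a cytokine, such as Col3a1. The 4 lower were Tagln, at a mean of 354 TPM in -LIF-ESCs against 168 with LIF and 279 with OSM, Col5a1 (42.9 against 23.9 and 36.1 TPM), Mmp2 (39.3 against 23.0 and 31.6 TPM) and Fbln1 (22.9 against 16.3 TPM in both media). Feeder fibroblasts were used before the media were split, and the part of such cells in the differences of imprinted genes was not tested.

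**Figure D4:**
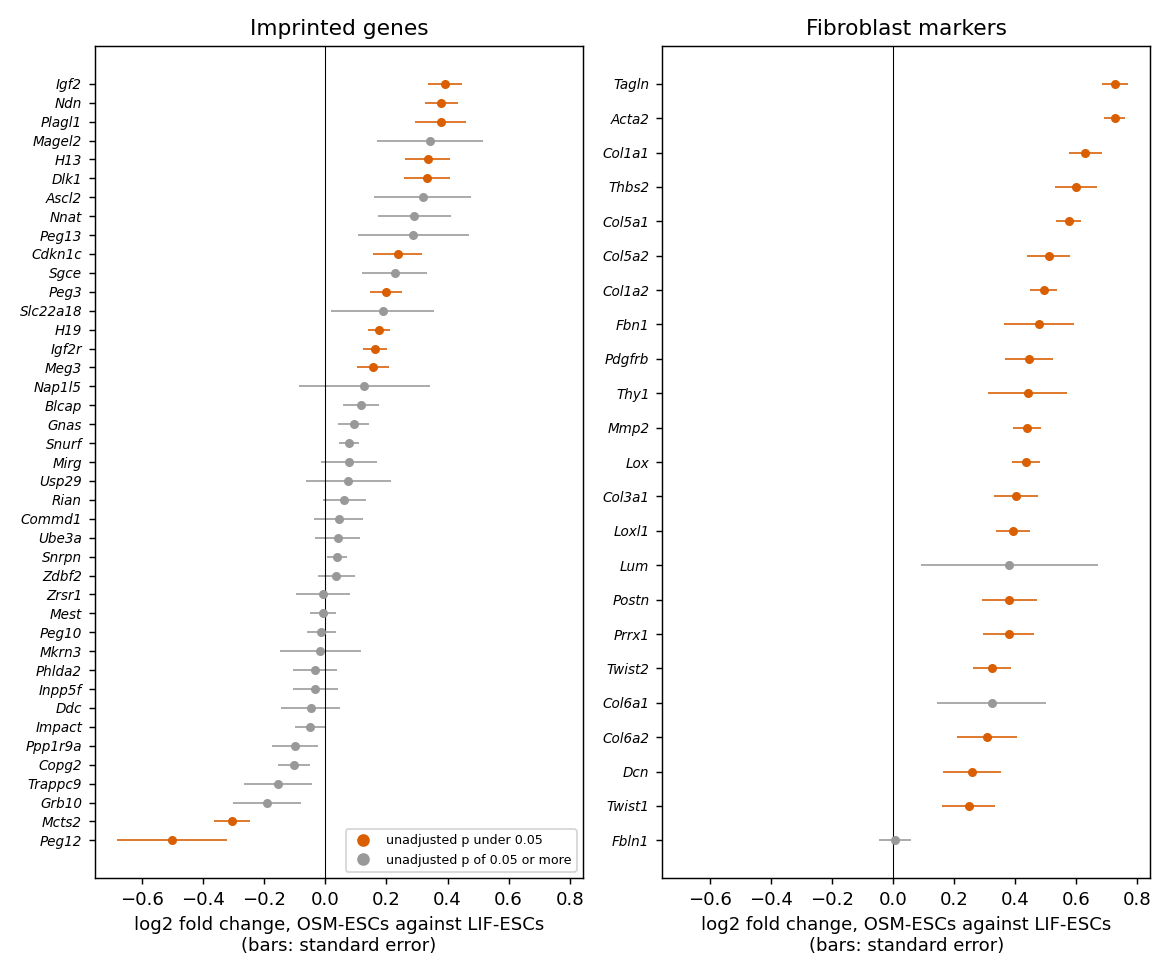
Log2 difference of OSM-ESCs over LIF-ESCs (x axis, log2(TPM + 1) scale, bars for the standard error) for the 41 imprinted genes tested (left) and the 23 fibroblast markers tested (right), with orange for an unadjusted limma p under 0.05. The imprinted genes run from -0.50 to 0.39, and the fibroblast markers from 0.01 to 0.73.

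Genes on a list named imprint maintenance were described next to them. The list also holds genes that set or oxidise DNA methylation, such as Dnmt3l, Tet1 and Tet2, which were among those called higher. Of its 22 genes, 7 were called higher and 1 lower in both media. The shares of all genes were 13.3% and 8.09% with LIF and 14.2% and 7.86% with OSM. The median log2 fold change of the list was 0.38 and 0.41. After rescaling 6 were called higher. The highest were Dnmt3l, a cofactor of the de novo DNA methyltransferases, from 37.0 and 37.3 TPM in -LIF-ESCs to 325 to 351 TPM elsewhere, at 3.20 and 3.11 (limma adjusted p = 9.81e-07 and 9.19e-07), and Tet2 and Tet1, which oxidise 5-methylcytosine. Tet2 was at 1.74 and 2.01 TPM in -LIF-ESCs and 16.1 to 19.9 TPM elsewhere, at 2.82 and 2.64, and Tet1 at 17.2 and 17.5 TPM against 83.4 to 93.5 TPM, at 2.35 and 2.26.

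Zfp57, the zinc finger protein whose letters were searched above, was at 31.1 and 32.5 TPM in -LIF-ESCs and 135 to 148 TPM elsewhere, at 2.16 and 2.06. Eed, Zfp445 and Arid4a were the other 3 called higher, with Zfp445 at 1.24 and 1.22 and Arid4a at 1.01 and 1.04, and Arid4a lost its calls after rescaling, at 0.83 and 0.86. Dppa3, a maternal factor that shields imprints from demethylation in the early embryo, was called lower, from 101 and 108 TPM to 36.6 to 44.1 TPM, at -1.41 and -1.31. Dnmt1, the maintenance methyltransferase, moved by 0.29 and 0.23 and Uhrf1, its partner, by 0.33 and 0.20. After rescaling, Dnmt1 was at 0.10 and 0.036 (limma adjusted p = 0.0839 and 0.483). Uhrf1 was then at 0.14 with LIF (adjusted p = 0.0189) and 0.0072 with OSM (adjusted p = 0.873). None of the 22 had a limma adjusted p under 0.05 between OSM-ESCs and LIF-ESCs, and 1 higher and 5 lower had an unadjusted p under 0.05.

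Of 25 other genes in or near imprinted domains, 15 could be tested. In both media Tfpi2, a protease inhibitor gene near Peg10, and Jade1 were called higher, Tfpi2 at 3.51 and 3.76 from 0.253 and 0.246 TPM to 12.4 to 16.4 TPM, and Jade1 at 1.62 and 1.52. Atp10a, a lipid flippase gene of the Snrpn domain, was called lower in LIF-ESCs at -1.03, and Calcr, the calcitonin receptor gene near Peg10, was called lower in OSM-ESCs at -1.02. Tfpi2 reached 1 TPM only with a cytokine and Calcr only in -LIF-ESCs, at 1.11 and 1.10 TPM, so each entered the test through the groups in which it was high. None of the 15 had a limma adjusted p under 0.05 between OSM-ESCs and LIF-ESCs, and 4 higher and 1 lower had an unadjusted p under 0.05.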

How the data were processed

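RNA-seq of mESCs at passage 10 was analysed from 6 libraries, 2 in each of 3 groups taken from the titles and treatment labels. Per the study's methods and processing notes, the authors trimmed reads with Trimmomatic, mapped them to mm10 with HISAT2 and counted them per gene with featureCounts. They deposited 1 table of TPM, and columns of their own comparisons are not among its columns. Annotation, strand setting and the handling of reads shared by genes are not given in the sources used here. Shared reads were not all dropped, since Snurf, whose exon bases all lie in Snrpn, had 2635 and 2123 recovered reads in -LIF-ESCs. Gm20721, which shares 1469 of its 1484 exon bases with Gnas on the opposite strand, had 7715 and 6629 there, against 7881 and 6772 for Gnas. Rows of overlapping models are therefore no separate measurements. The authors tested counts with DESeq2, which was not repeated here because TPM were deposited.

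Gene models, strands and overlaps came from GENCODE M21 on GRCm38, where 28405 of 28584 symbols (99.4%) were found once. Whole reads were recovered as TPM times exon length over 1 step per library. Of the values above 0, 94.6% were whole within 0.02 of a read, and 41 of the 45 imprinted genes were whole in all libraries, the exceptions being Igf2r, Airn, Impact and Mcts2.

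Values of log2(TPM + 1) were fitted in R 4.3.3 by limma 3.58.1, with lmFit and a trended eBayes, over 18556 genes, with all 3 groups in 1 fit, 3 residual degrees of freedom and a median residual SD of 0.086. The fit was also run on simulated reads with known changes, placed only in well-covered genes of LIF-ESCs. No result of that run is used here. Same-numbered replicates did not deviate together (correlations of -0.043 to 0.027), so no pairing was used. Neighbours of a domain were compared by their log2 ratio within a library. Tables were handled with Python 3.11.15, pandas 2.3.3 and numpy 2.4.6, and plots drawn with matplotlib 3.10.9.

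The imprinted genes, their parental classes and the lists (imprint maintenance, other genes of imprinted domains, and markers of fibroblasts, embryonic stem cells, trophoblast, primitive endoderm, mesoderm and neural cells) came from general knowledge and were chosen with earlier results of these data known. Every imprinted gene with a row is described. From the first 2 lists the text names 3 called genes at each end of the log2 fold changes. Other genes named from lists were chosen after their values were seen.

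Settings tried as alternatives were a replicate block, a fit without the third group, a pseudocount of 0.1, a filter of 5 TPM or none, an untrended eBayes, libraries rescaled by the median ratio, limma's voom on recovered reads, the adjusted p with no fold limit and each replicate left out. Leaving out Snurf, pairs of untested genes and overlapping promoter windows was added after seeing the data.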

Additional observations from a re-analysis of the deposited data

How the results depend on the processing

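Every call of an imprinted gene against -LIF-ESCs was kept under each alternative that could give a value, except Igf2r in LIF-ESCs, lost at 0.87 after rescaling by the median ratio and at 0.90 on recovered reads. The filter of 5 TPM removed Usp29 and Peg13. Several genes passed the fold limit only under another setting. Ascl2 in OSM-ESCs did so with a pseudocount of 0.1, after rescaling and on recovered reads, Commd1 in both media after rescaling and on recovered reads, Magel2 in LIF-ESCs under the same 3 settings as Ascl2 and in OSM-ESCs on recovered reads, and Peg12 in LIF-ESCs on recovered reads and without the first LIF replicate. Impact in OSM-ESCs turned from 0.17 to -0.029 after rescaling and to -0.027 on recovered reads.

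Without a fold limit the counts against -LIF-ESCs were 16 higher and 18 lower with LIF and 19 and 18 with OSM. Between OSM-ESCs and LIF-ESCs, the count of imprinted genes with an adjusted p under 0.05 was 0, but 2 with a filter of 5 TPM, under which fewer genes were tested, and 10 with voom on recovered reads, and the cause of the latter was not tested. Shares of all genes under that filter and under voom were not worked out. The maternal median in LIF-ESCs was 0.22 after rescaling, and in OSM-ESCs 0.70 with a pseudocount of 0.1 and 0.40 after rescaling. The paternal median in LIF-ESCs was -0.67 after rescaling, and in OSM-ESCs -0.41 with a pseudocount of 0.1 and -0.38 after rescaling. Without Snurf the paternal medians were -0.45 and -0.23. Pairs of neighbours that differed by 1 or more numbered 25 and 24 with a pseudocount of 0.1, and 14 and 15 of 44 when only pairs of tested genes were counted.

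With a replicate block, although the numbers did not pair the samples, the counts were 8 higher and 8 lower in LIF-ESCs, 9 and 8 in OSM-ESCs and 0 between the media, as without it. Leaving out 1 replicate at a time gave 8 higher and 8 to 9 lower in LIF-ESCs, 9 higher and 8 lower in OSM-ESCs and 0 between the media, with the lone library of a group assumed to vary like the others. With 2 libraries a group, the p-values lean on the spread shared by all groups, and genes below 1 TPM cannot be judged.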
